A study of Mus musculus with 4 samples.

Results

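Fibroblasts build connective tissue, and the 38 genes described here encode what they secrete, cross-link, contract with and carry on their surface. The set was given by gene name, from collagens to inhibitors of proteolysis, and a probe belonged to a gene when its RefSeq accession did. Of the 38 genes 37 had a matched probe, with 59 probes in all, out of 33378 genes or transcripts on the array. All 37 passed the filter on low signal, which kept 21216 genes or transcripts above background on at least 1 array. Col6a3, a chain of collagen VI, had no matched probe and was not analysed here.

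RNA of 4 mouse samples was read, each on a single-colour Agilent expression array. E14 embryonic stem (ES) cells, of strain 129, gave 1 array. Induced pluripotent stem (iPS) lines 7 and 13, both derived from bone marrow mononuclear cells of C57BL/6 mice with an Oct4-EGFP transgene, gave 1 array each (n = 2). Bone marrow mononuclear cells (BMMNCs) of C57BL/6 mice, the starting material of the iPS lines, gave 1 array. ES and iPS cultures shared a layer of irradiated mouse embryonic fibroblasts (MEFs) and a serum-containing medium with leukaemia inhibitory factor, and MEFs were depleted by letting them settle on gelatin before RNA was taken. BMMNCs are not described as grown on feeders. Each iPS line is 1 line, the number of animals is not given in the sources used here, and strain differs between ES cells and the other samples. RNA of feeder cells alone was not analysed here.

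Collagen chains are hydroxylated and folded in the endoplasmic reticulum with the help of chaperones, secreted, trimmed, and joined into fibrils that lysyl oxidases cross-link outside the cell. Proteoglycans and fibulins shape the fibrils and elastic fibres, matricellular proteins such as thrombospondins and CCN proteins signal to the cells rather than bear load, and metalloproteinases and their inhibitors set the rate of turnover. MEFs are rich in these products, whereas ES cells in culture grow as compact epithelial colonies and blood cells make little fibrillar matrix. The question put to the data was whether the genes move together by 1 common amount between feeder-grown cultures.

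Between 54.6% and 59.0% of 41174 distinct probes were well above background on an array, no spot was saturated, and precision is limited by how few arrays there are. All levels are log2 processed signals minus the 75th percentile of the array's probes, so 0 is a bright gene, and levels of different probes are not compared. The labels held against defining markers. All 14 pluripotency genes rose in the iPS lines and in the ES culture against BMMNCs (limma, adjusted p under a threshold of 0.05). Of all genes tested, 38.3% and 39.1% rose. By the same test 12 of 13 blood genes fell in each comparison. Their median log2 difference was -7.39 in the iPS lines and -7.15 in the ES culture, against 0.007 and 0.07 over all genes tested. The share of all genes that fell is not given here. Macrophage genes were above background on every array for 9 of 9 genes, and 7 fell against BMMNCs in each comparison. Msr1 and C1qa did not pass, with log2 differences of -0.02 and -0.46 in the iPS lines. Summed relative signal of the 9 was 6.98, 7.59 and 6.91 in ES cells, line 7 and line 13 and 105 in BMMNCs. The brightest in BMMNCs were Ctss and Cybb, at 6.08 and 4.50.

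Every measured matrix gene was well above background in the ES culture and in both iPS lines, and 18 of 37 were also above background in BMMNCs. Against BMMNCs 37 of 37 rose in the iPS lines in limma's moderated test with Benjamini-Hochberg adjustment over all genes, where 38.3% of all genes tested rose. In the ES culture 36 of 37 rose, where 39.1% of all genes did. Both tests used the measured signals, also those of the 19 genes not well above background in BMMNCs. Those 19 passed the filter only through the cultures, so that they rose follows in part from the filter. With the 19 genes that were not well above background in BMMNCs at the lower bound of their difference, the median log2 difference was 6.98 in the iPS lines and 6.51 in ES cells. Over all genes above background on either side, treated alike, it was -0.08 and 0.06. At least 4-fold higher on every array compared were 34 of 37 in both comparisons (15.3% of all genes for the iPS lines and 17.3% for the ES culture). Both comparisons use the same BMMNC array, and the fit assumes that the single ES and BMMNC arrays vary as much as the 2 lines do, an assumption that cannot be checked with these arrays. For a gene whose BMMNC signal did not clear background, "at least" folds set the bright mean against the higher of its own signal and the lowest signal well above background on that array.

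**Figure D1:**
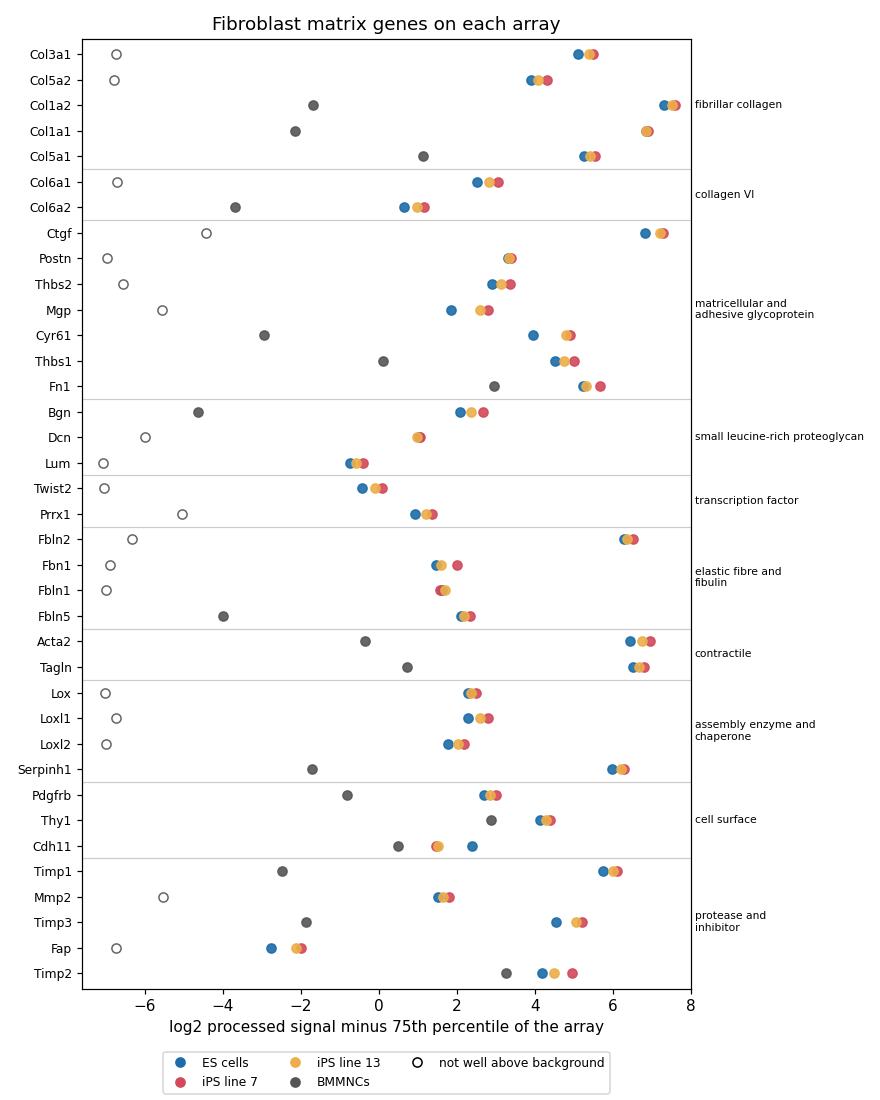
Level of each matrix gene on each array, as log2 processed signal minus the 75th percentile of the array, grouped by role. Each point is 1 array and open points were not well above background; the 3 cultures lie close together for every gene, and BMMNCs lie lower for all 37, least so for Cdh11, Timp2 and Thy1.

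Among the fibrillar collagens, the ropes of the matrix, all 5 measured chains rose in the iPS lines, from 4.33 on the log2 scale for Col5a1 to at least 10.33 for Col3a1. Col3a1, which forms thin compliant fibrils with type I collagen, was at 5.10 in ES cells, 5.50 in line 7, 5.40 in line 13 and -6.75 in BMMNCs, where it was not well above background. It was at least 1285-fold above BMMNCs in the iPS lines and at least 1012-fold above them in ES cells. The limma adjusted p values, 0.000703 and 0.00109, come from the measured BMMNC signal and not from these bounds. Col1a2, the second chain of type I collagen, had levels of 7.30 in ES cells, 7.60 in line 7, 7.52 in line 13 and -1.70 in BMMNCs, a log2 rise of 9.26 in the iPS lines (SE 0.10). Col1a2, by its 1 probe, and Col1a1, by 1 of its 3 probes, were above background in BMMNCs, while no probe of Col3a1 or Col5a2 was. Col5a1, which helps to start fibrils, was the chain closest to marrow, at 5.25, 5.54, 5.41 and 1.14 in the same order. Col5a2 and Col1a1 lay between, with Col5a2 at least 539-fold above BMMNCs in the iPS lines and Col1a1 with a log2 rise of 9.03 (SE 0.095).

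Collagen VI forms beaded filaments around cells. Col6a1 was at 2.51 in ES cells, 3.05 in line 7, 2.83 in line 13 and -6.72, not well above background, in BMMNCs, at least 226-fold above BMMNCs in the iPS lines. Col6a2 was at 0.65, 1.16, 0.99 and -3.69, a log2 rise of 4.77 (SE 0.13). Both chains had line 7 highest, then line 13, then ES cells.

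The 7 matricellular and adhesive glycoproteins all rose in the iPS lines, from 2.53 on the log2 scale for Fn1 to at least 11.67 for Ctgf. Ctgf, a CCN protein that is induced by YAP and by transforming growth factor beta, was at 6.82 in ES cells, 7.29 in line 7, 7.20 in line 13 and -4.42 in BMMNCs, where it was not well above background, and was at least 3248-fold above BMMNCs in the iPS lines. Mgp, an inhibitor of calcification, was at 1.85, 2.80, 2.61 and -5.56 in the same order, at least 192-fold higher. For both, the BMMNC level was a bound and not a measurement. Fn1, fibronectin, was the exception of the group, with 5.23 in ES cells, 5.66 in line 7, 5.30 in line 13 and 2.95 in BMMNCs (log2 rise 2.53, SE 0.21, limma adjusted p = 0.00394). Postn, Thbs1, Thbs2 and Cyr61 lay between, Postn at least 302-fold and Thbs2 at least 281-fold higher, Cyr61 and Thbs1 with log2 rises of 7.79 (SE 0.11) and 4.76 (SE 0.16).

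Of the small leucine-rich proteoglycans, which bind collagen fibrils and set their width, Bgn was at 2.09 in ES cells, 2.68 in line 7, 2.36 in line 13 and -4.62 in BMMNCs. Dcn was at 1.04, 1.05, 0.97 and -5.99, and Lum at -0.75, -0.42, -0.59 and -7.06, neither well above background in BMMNCs. Dcn and Lum were at least 59.4-fold and 20.8-fold above BMMNCs in the iPS lines, and Bgn rose by 7.15 (SE 0.19). The transcription factors of mesenchyme in the set, Twist2 and Prrx1, were not well above background in BMMNCs and were at least 29.1-fold and 72.3-fold above BMMNCs in the iPS lines. Twist2 was at -0.43 in the ES culture, 0.07 in line 7 and -0.11 in line 13. Prrx1 was at 0.92, 1.37 and 1.22.

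In the elastic fibre group, Fbln2, a fibulin that bridges matrix proteins, had levels of 6.28 in ES cells, 6.51 in line 7, 6.37 in line 13 and -6.34, not well above background, in BMMNCs, and was at least 2558-fold above BMMNCs in the iPS lines. Fbn1, fibrillin, was at 1.46, 1.99, 1.60 and -6.90, at least 103-fold higher. Fbln5, needed for elastic fibre assembly, was above background in BMMNCs, at -3.98, against 2.11, 2.33 and 2.19 in the cultures. Fbln1 was at 1.63, 1.58 and 1.70 in the cultures, at least 92.0-fold above BMMNCs in the iPS lines. By the brightest probe of each gene it was the only gene of the 37 whose highest level was in line 13. Its other probe was highest in ES cells, at 0.98 against 0.59 in line 7 and 0.54 in line 13. The contractile genes both rose. Acta2, smooth muscle actin and a mark of myofibroblasts, was at 6.45 in ES cells, 6.96 in line 7, 6.76 in line 13 and -0.35 in BMMNCs, and Tagln, a calponin-related actin-binding protein, at 6.52, 6.81, 6.66 and 0.73.

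All 4 assembly enzymes and chaperones rose in the iPS lines, Serpinh1 by 7.95 on the log2 scale (SE 0.099) and the others by at least 6.98. Lox, the lysyl oxidase that starts cross-linking, was at 2.29 in ES cells, 2.49 in line 7, 2.36 in line 13 and -7.03 in BMMNCs. Loxl1 and Loxl2, its relatives, were at least 190.2-fold and 126-fold above BMMNCs in the iPS lines, with no BMMNC level well above background. Serpinh1, the collagen chaperone HSP47, was measured in BMMNCs, at -1.70, against 5.98, 6.28 and 6.22 in the cultures.

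The 3 genes under 4-fold from marrow were Cdh11, Thy1 and Timp2, on the cell surface or among the inhibitors. Thy1, a glycoprotein of fibroblasts that lymphoid cells also carry, was at 4.14 in ES cells, 4.39 in line 7, 4.30 in line 13 and 2.89 in BMMNCs, a log2 rise of 1.46 in the iPS lines (SE 0.10, limma adjusted p = 0.00313). Cdh11, a cadherin of mesenchymal cells, was at 2.38, 1.46, 1.52 and 0.49, a rise of 1.001 (SE 0.099, limma adjusted p = 0.00573). Its other probes, described further on, were not well above background in BMMNCs. Pdgfrb, the receptor of platelet-derived growth factor on pericytes and fibroblasts, was at 2.70, 3.01, 2.84 and -0.81, a rise of 3.74 (SE 0.13).

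Timp2, an inhibitor of metalloproteinases that also takes part in activating Mmp2, was at 4.19 in ES cells, 4.96 in line 7, 4.50 in line 13 and 3.26 in BMMNCs. It rose by 1.47 in the iPS lines (SE 0.26, limma adjusted p = 0.0194), and its difference of 0.94 in ES cells (SE 0.30) was the one that did not pass there (limma adjusted p = 0.0721). Timp1 and Timp3, the other inhibitors in the set, rose by 8.54 (SE 0.11) and 6.99 (SE 0.12). Fap, a serine protease of activated fibroblasts, was at -2.77, -1.98 and -2.13 in the cultures and was at least 7.08-fold above BMMNCs in the iPS lines. Mmp2, a gelatinase, was at 1.51, 1.80 and 1.65 and at least 97.3-fold higher.

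Within the cultures the differences were small. Line 7 was above line 13 for 35 of 37 genes, where 41.4% of the 17192 genes above background in all 3 cultures were, and the median difference was 0.15 on the log2 scale (1.11-fold, interquartile range 0.10). Line 7 was above ES cells for 35 of 37 (44.2% of all genes), with a median of 0.39 (1.31-fold, interquartile range 0.23). Line 13 was above ES cells for 35 of 37 (46.5%), with a median of 0.23 (1.17-fold, interquartile range 0.18). Over all genes the medians were -0.03, -0.05 and -0.03, and the interquartile ranges were 0.17, 0.49 and 0.43. These are single arrays against each other with no replicate check, and each array enters 2 of the 3 differences. In such bulk RNA, fewer fibroblasts and less matrix RNA per cell cannot be told apart.

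A single common amount described most of the genes but not all. Repeated spots of 1 probe on 1 array had a median SD of 0.058 to 0.061 on the log2 scale. For a probe with 1 spot, a difference between arrays thus has a spot error whose double is 0.17. This band was used for every gene. The probes used for Acta2, Col1a1 and Fn1 are means of 10 spots, so it is too wide for them. Within 0.17 of the genes' own median lay 31 of 37 genes for line 7 against line 13, 25 of 37 for line 7 against ES cells and 29 of 37 for line 13 against ES cells. Of all genes, 79.0%, 37.3% and 41.5% lay as close to the median of all genes. Between the lines the members' 83.8% is thus near the share of all genes, and against ES cells the shares of 67.6% and 78.4% are above it. In all 3 pairs 23 of 37 genes lay within the band. Spot error leaves out culture, depletion, labelling and hybridisation, so a gene outside the band is not thereby shown to differ between cultures. None of the 37 genes was 2-fold apart between the lines (0.215% of all genes were).

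**Figure D2:**
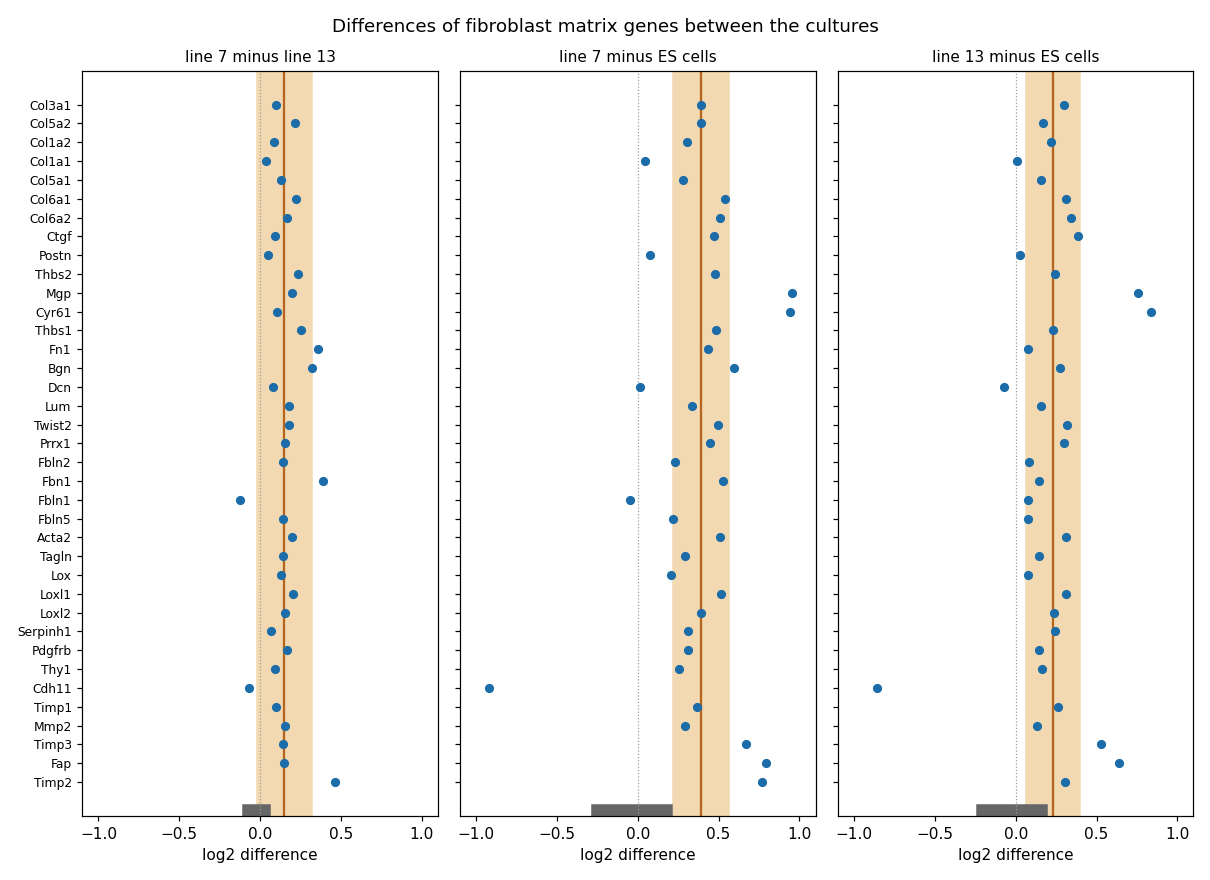
Log2 difference of each matrix gene between pairs of cultures (1 point per gene, 1 array against 1). The orange line is the median of the 37 genes and the band spans 2 SDs of the error of single spots around it. The dark bar at the foot is the middle 50 percent of all genes. Mgp and Cyr61 lie to the right of the band against ES cells, and Cdh11 far to the left.

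By role, elastic fibre genes had the lowest median difference from ES cells in both lines, and the highest median was that of proteases and inhibitors in line 7 and of collagen VI in line 13. For line 7 against ES cells, the median was 0.30 over 5 fibrillar collagens, 0.22 over 4 elastic fibre genes, 0.35 over 4 assembly genes, 0.40 over 2 contractile genes and 0.47 over 2 transcription factors. The medians were 0.48 over 7 matricellular genes, 0.52 over 2 collagen VI chains, 0.67 over 5 proteases and inhibitors, 0.33 over 3 proteoglycans and 0.25 over 3 cell surface genes. For line 13 against ES cells the same groups had medians of 0.17, 0.08, 0.24, 0.23, 0.31, 0.24, 0.33, 0.31, 0.16 and 0.14. These groups hold few genes and their order was not tested.

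Above the band against ES cells in both lines stood Mgp, Cyr61, Fap and Timp3. Cyr61, a CCN protein that is an early target of YAP and serum response factor, was at 3.96 in the ES culture, 4.90 in line 7 and 4.79 in line 13, differences of 0.94 and 0.84. Mgp differed by 0.95 and 0.76, and Fap by 0.79 and 0.64. Timp3, which is bound to the matrix, was at 4.54 in the ES culture, 5.21 in line 7 and 5.07 in line 13, differences of 0.67 and 0.53. In each of these 4 genes both lines lay above ES cells and differed from each other by 0.11 to 0.20. Timp2 (0.77) and Bgn (0.60) were above the band in line 7 against ES cells, where line 13 gave 0.31 and 0.27.

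Below the band against ES cells in both lines stood Col1a1, Postn, Dcn and Cdh11. Postn, periostin, a matricellular protein of fibroblasts under load, was at 3.31 in the ES culture, 3.38 in line 7 and 3.33 in line 13. Col1a1 was at 6.85, 6.90 and 6.86, and Dcn at 1.04, 1.05 and 0.97. These 3 genes were at almost 1 level in the 3 cultures, with differences from ES cells of -0.07 to 0.08. Fbln1 (-0.05) and Lox (0.21) were below the band in line 7 alone, Lox just outside it where Fbln5 (0.22) was just inside. Between the lines, Timp2 (0.46), Fbn1 (0.39), Fn1 (0.36) and Bgn (0.32) were above the band and Fbln1 (-0.12) and Cdh11 (-0.07) below it.

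Promoters are shown for 2 genes above the common amount, Cyr61 and Timp3, for 1 within it, Col3a1, and for 1 below it, Postn, so that the sequences beside those differences can be read. Each is the 250 bases before the gene's start, 5′ to 3′ on the gene's strand, from the RefSeq table of assembly GRCm38.p6. Capitals mark a TATA box (TATAAA, on the gene's strand) or the TEAD site GGAATG, searched on both strands, so that it can appear as CATTCC. The windows are chr3:145649986-145650235 on the minus strand for Cyr61, chr10:86300162-86300411 on the plus strand for Timp3, chr1:45311288-45311537 on the plus strand for Col3a1 and chr3:54359017-54359266 on the plus strand for Postn.
Cyr61: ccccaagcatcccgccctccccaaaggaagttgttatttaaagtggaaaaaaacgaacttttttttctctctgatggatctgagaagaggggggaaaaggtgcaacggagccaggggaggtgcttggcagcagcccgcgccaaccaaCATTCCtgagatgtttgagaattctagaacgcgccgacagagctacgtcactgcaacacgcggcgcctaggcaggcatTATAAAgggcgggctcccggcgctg
Timp3: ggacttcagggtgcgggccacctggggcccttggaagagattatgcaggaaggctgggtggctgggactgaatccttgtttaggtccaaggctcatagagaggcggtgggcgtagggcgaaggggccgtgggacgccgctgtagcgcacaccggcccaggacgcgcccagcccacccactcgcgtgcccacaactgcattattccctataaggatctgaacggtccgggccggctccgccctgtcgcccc
Col3a1: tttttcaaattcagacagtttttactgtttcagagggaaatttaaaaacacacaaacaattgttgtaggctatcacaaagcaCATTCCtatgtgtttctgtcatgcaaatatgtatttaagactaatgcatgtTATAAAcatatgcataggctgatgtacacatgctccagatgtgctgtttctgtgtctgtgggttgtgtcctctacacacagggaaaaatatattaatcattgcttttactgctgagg
Postn: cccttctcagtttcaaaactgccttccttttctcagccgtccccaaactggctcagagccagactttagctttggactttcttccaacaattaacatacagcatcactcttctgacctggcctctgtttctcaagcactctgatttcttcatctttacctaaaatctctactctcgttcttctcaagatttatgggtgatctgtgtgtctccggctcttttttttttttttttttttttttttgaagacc

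In Cyr61 the TATA box began 25 bases before the start and the TEAD site 103 bases before it. In Col3a1 they began 117 and 168 bases before the start. Neither motif was in the windows of Timp3 and Postn. A promoter was matched for 21 of the 38 genes, and 6 of those (28.6%) held the TEAD site, against 12.6% of 27025 promoters of the same length: Cyr61, Col3a1, Prrx1, Col6a2, Acta2 and Timp1. Among these 6, the differences of line 7 from ES cells ran from 0.36 to 0.94 with a median of 0.48, and among the 14 measured genes whose promoter lacked it from -0.05 to 0.77 with a median of 0.39, so the ranges overlap. The TATA box was in 2 of 21 (9.52%, against 8.12%). A CCAAT box (CCAAT, both strands) was in 28.6% against 34.5%, an AP-1 site (TGANTCA, both strands) in 4.76% against 6.87% and an E-box (CANNTG, both strands) in 47.6% against 66.0%. The strict CArG box of serum response factor (CCWWWWWWGG, where W is A or T, both strands) was in 0 of 21, against 1.40%. Near matches, such as ccctatatgg in the Acta2 window, were not counted, so the 0 does not show that these promoters lack the element. The motifs do not overlap in the printed windows, and a match of letters is a description, not a bound site.

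Separate probes of a gene gave a check of the differences that does not rest on the brightest probe. Of the 37 genes 13 had more than 1 probe above background in the 3 cultures, 34 probes in all. All probes of a gene had the same sign in 12 of 13 genes for line 7 against ES cells, in 10 for line 13 against ES cells and in 10 between the lines. The median spread between the probes of a gene was 0.13, 0.15 and 0.15 in these pairs. The brightest probe had the lowest difference in 9 of 13 genes for line 7 against ES cells, in 4 for line 13 against ES cells and in 9 between the lines.

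Cdh11 was the 1 gene whose probes disagreed in sign against ES cells in line 7. The brightest probe, used for the levels above, gave -0.92 for line 7 and -0.86 for line 13. The other probes gave 0.71 and 0.53 for line 7 and 0.49 and 0.32 for line 13, on the same side as the rest of the matrix genes. In BMMNCs those 2 probes were at -7.15 and -7.19, not well above background, where the brightest was at 0.49. The cause of the disagreement was not tested.

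Col1a1, which stood below the common amount against ES cells by its brightest probe (0.05 for line 7 against ES cells), was at 0.53 and 0.31 by its other probes. Its place below the band is therefore a property of 1 of 3 probes. Fbln1 was low by both of its probes for line 7 against ES cells, at -0.05 and -0.39. For line 13 against ES cells they gave 0.08 and -0.44, and between the lines -0.12 and 0.05. Its places within the band in line 13 and below it between the lines thus rest on the brightest probe. Fn1 had line 7 above line 13 by all 3 probes, at 0.36, 0.42 and 0.45. Fbn1 gave 0.39 and 0.54 for the same pair, and Thbs1 gave 0.25, 0.41 and 0.38. Postn, Dcn, Mgp, Cyr61, Fap, Timp2, Timp3 and Bgn each rest on 1 probe. Against BMMNCs the probes of Acta2 differed in size, with log2 differences of 7.21 by the brightest and 1.03 by another, while the third was not well above background in BMMNCs, at -6.98.

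**Figure D3:**
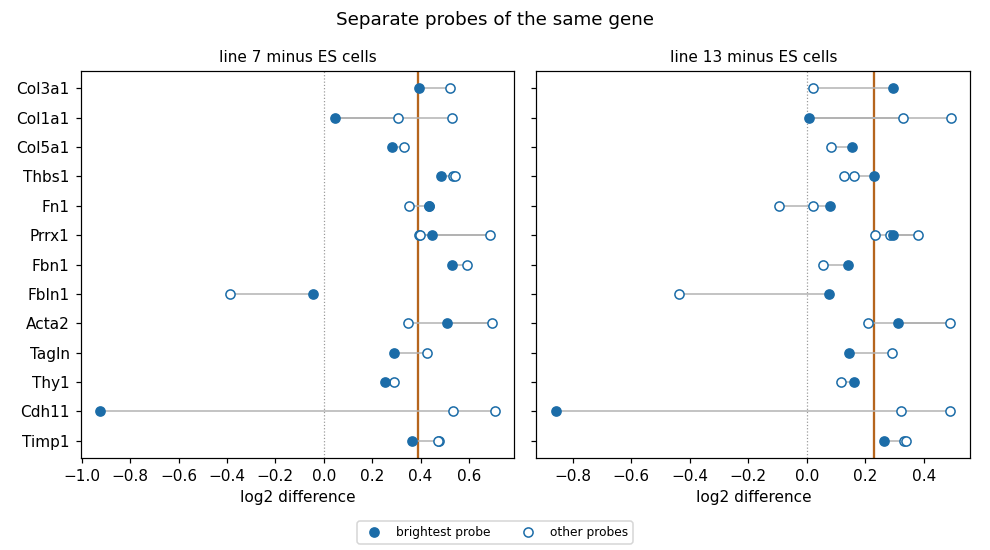
Log2 difference from ES cells by each probe of the 13 genes with more than 1 probe above background in the 3 cultures. Filled points are the brightest probe, open points the others, and the orange line is the median of the 37 matrix genes; the Cdh11 probes lie on both sides of 0, and those of most other genes lie near each other.

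With both lines in 1 group against ES cells, 0 of 37 matrix genes passed limma's adjusted threshold, where 4.78% of all genes passed in either direction and 1.97% upwards. At an unadjusted p under 0.05 there were 7 of 37, where 31.1% of all genes were. None of the 37 was 2-fold apart from ES cells in both lines, where 2.36% of all genes were 2-fold higher and 4.15% lower. The mean of the lines was above ES cells for 35 genes, and the median difference was 0.31, against -0.05 over all genes. The smallest adjusted p values by limma were 0.0581 for Cdh11 (-0.89, SE 0.099), 0.0631 for Cyr61 (0.89, SE 0.11), 0.0812 for Mgp (0.86, SE 0.14) and 0.0847 for Fap (0.72, SE 0.12). The count differed between fits. With an intensity trend in the spread, 22 of 37 genes rose and Cdh11 fell, where 15.7% of all genes rose and 35.8% were called. Among genes above background on all arrays, 9 of 18 rose and Cdh11 fell, where 16.6% rose and 38.5% were called. After normexp correction and quantile normalization, 5 of 37 rose and Cdh11 fell, where 8.75% rose and 19.2% were called, a share near that of the members. Cyr61, Timp3 and Cdh11 were called in each of these 3 fits. After the members' median level was taken from each array, 0 of 37 passed and 1 had an unadjusted p under 0.05. Of all genes, 6.73% and 15.2% did. A median of levels is not the median of differences, so what was left is not exactly the departure from the common amounts above. The spread in that fit was wide, with a prior SD of 0.38 against 0.094 before, so its count of 0 has little power and does not show 1 common amount.

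Of 33 other fibroblast genes above background in the 3 cultures, 31 were higher in line 7 and 28 in line 13 than in ES cells. Of all genes 44.2% and 46.5% were, shares that also stand beside the counts of the lists below. The other fibroblast genes had medians of 0.41 and 0.30. Sfrp1, a secreted Wnt inhibitor, was the 1 that passed limma's threshold for the iPS lines against ES cells, and it fell by 1.85 (SE 0.13, limma adjusted p = 0.0451), from 2.23 in ES cells to 0.29 and 0.47. Pdgfra and Ddr2, receptors of mesenchymal cells, were at -3.07 and -2.18 in the ES culture, -2.81 and -1.83 in line 7 and -2.91 and -1.94 in line 13, and both lacked a BMMNC level well above background. Vim, vimentin, which blood cells also make, was at 6.68, 6.84, 6.74 and 6.26.

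All 11 smooth muscle genes were higher than ES cells in both lines, with medians of 0.48 and 0.33. Cnn1, calponin, was at 3.94 in ES cells, 4.43 in line 7, 4.27 in line 13 and -3.56 in BMMNCs. Matrix proteases had medians of 0.44 and 0.26 over 14 genes and matrix receptors 0.45 and 0.32 over 16. Itga1, an integrin chain that binds collagen, rose by 1.81 in the iPS lines (SE 0.11) and Sdc4, a syndecan, by 1.39 (SE 0.097), with limma adjusted p values of 0.0430 and 0.0451. Against BMMNCs 30 of 33 other fibroblast genes, 11 of 11 smooth muscle genes and 15 of 18 collagen-processing genes rose in the iPS lines. Of all genes tested, 38.3% rose there.

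The enzymes that modify collagen had smaller median differences, which were not tested against those of the matrix genes. Over 18 collagen-processing genes the medians were 0.18 for line 7 and 0.10 for line 13 against ES cells, with 15 and 13 genes higher. P4ha1 and P4ha2, prolyl hydroxylase chains, were at 2.95 and 4.05 in the ES culture, 3.02 and 3.93 in line 7, and 2.93 and 3.87 in line 13. P4ha3, the third such chain, was at -3.77, -3.30 and -3.44, higher than in ES cells by 0.47 and 0.33. Over 16 genes of the transforming growth factor beta pathway the medians were 0.25 and 0.06, with 9 and 8 genes higher than in ES cells. Tgfb2 and Tgfb3, ligands of the pathway, were at -0.58 and 2.70 in the ES culture, 0.005 and 3.16 in line 7, and -0.25 and 3.04 in line 13.

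Markers of other cell types differed between the cultures as well. Over 14 pluripotency genes the medians were -0.10 and -0.04 against ES cells, with 5 and 6 of 14 higher than in ES cells, and 0 of 14 were higher in line 7 than in line 13. Their summed relative signal was 830 in the ES culture, 644 in line 7 and 673 in line 13, and without Zfp42, which encodes the stem cell marker REX1, 685, 634 and 661. Zfp42 and Tcl1 fell in the iPS lines against ES cells, by 3.69 (SE 0.16) and 1.52 (SE 0.12), with limma adjusted p values of 0.0425 and 0.0455. The summed relative signal of the 37 matrix genes was 1058, 1352 and 1233 in the same order. Epithelial genes had medians of 1.88 and 1.37 over 10 genes, and 3 of them rose in the iPS lines. Primitive endoderm genes had medians of 0.14 and 0.12 over 10, and macrophage genes 0.09 and -0.07 over 9. Marrow stroma genes had 0.24 and 0.24 over 7, and endothelial genes -0.25 and -0.33 over 7. Between the lines, 9 of 9 macrophage genes, 7 of 7 blood genes and 10 of 11 smooth muscle genes were higher in line 7, where 41.4% of all genes were. Their medians were 0.16, 0.19 and 0.17, near the 0.15 of the matrix genes. Of 7 endothelial genes 2 were higher in line 7. The part of remaining feeder fibroblasts, of matrix genes active in the stem cells themselves, and of strain in these differences was not tested.

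**Figure D4:**
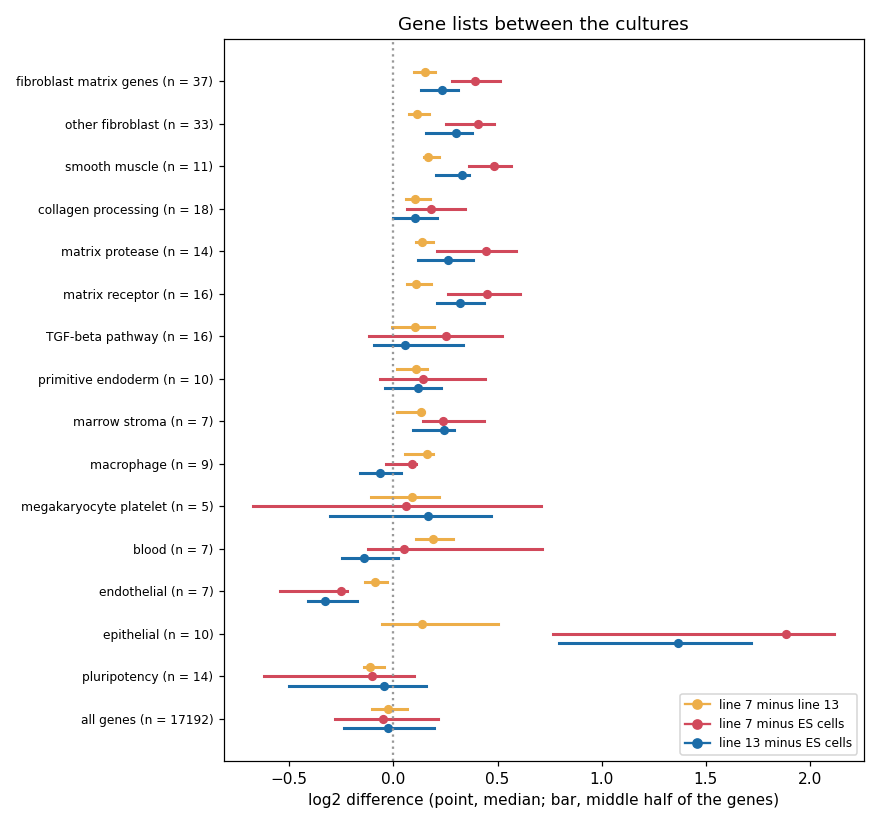
Median (point) and middle 50 percent (bar) of log2 differences between pairs of cultures for each gene list, over genes above background in the 3 cultures, n in brackets. Matrix, other fibroblast and smooth muscle genes have medians and middle 50 percent above 0 in all 3 pairs. So do matrix protease, matrix receptor and marrow stroma genes. Pluripotency genes lie below 0 between the lines, and their middle 50 percent crosses 0 against ES cells.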

How the data were processed

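Each array file holds intensities: per the file headers the authors' scanner software, Agilent Feature Extraction 9.5.1.1 (9.5 per the submitters' processing notes), wrote for every spot a processed signal after background subtraction and detrending. All 4 arrays share 1 slide and 1 scan, per the file headers. The authors' deposited intensity table is that signal times 1 factor per array; how the factors were set is unknown.

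Outlier spots and 14 probes were left out, spots of a probe averaged, and log2 signal minus the array's 75th percentile used. Accessions were matched to the RefSeq table of GRCm38.p6, which named 22948 of 41174 probes (the table lists Ctgf and Cyr61 as Ccn2 and Ccn1). A gene took its probe of highest mean signal. A probe was above background where a share of at least 0.5 of its spots was marked so. limma 3.58.1 in R 4.3.3 fitted 3 group means to 21216 genes, with 1 residual degree of freedom, from the lines, and Benjamini-Hochberg adjustment (threshold 0.05); p-values measure only the spread between these arrays. It was tested on simulated data. Normexp correction used the median signal, as the files hold no mean signal.

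The members and gene lists were chosen with earlier results of these data known. Named genes are all members, the first 3 genes measured of each other list and those past the threshold between iPS lines and ES cells; not all are printed. Alternatives were other scalings, background corrections, filters, probe rules and spread estimates.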

Additional observations from a re-analysis of the deposited data

How the results depend on the processing

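No paired analysis was possible because the labels share no replicate numbers between groups. The single ES and BMMNC arrays and 1 residual degree of freedom limit every test, and leaving out a line leaves none, so only sizes were recomputed then: 34 to 34 members at least 4-fold above BMMNCs and 0 to 0 members 2-fold apart from ES cells. Restricting to genes above background on all arrays leaves 18 members to test among 14859 genes, and 18 rose against BMMNCs in the iPS lines and 18 in ES cells. The share of all genes that rose under that filter is not given here, so the 18 have no baseline. For iPS lines against ES cells, called members numbered 10 there, 6 after normexp and 23 with the intensity trend, against 0 in the fit reported, and no gene of any kind was called with the authors' table, without a filter or with the percentile over probes above background on all arrays. After removing the members' median level, 1 member (Cdh11) was called above background on all arrays and 2 (Cdh11 and Cyr61) after normexp. The share of all genes called in those fits is not given here, so these counts have no baseline. Removing their mean level, chosen after seeing the data, gave 0. The common amount moved to 0.49 for line 7 against ES cells under quantile normalization and to 0.32 for line 13 against ES cells under median scaling. Signs between iPS lines and ES cells reversed for Cdh11 (0.0454) and Fbln1 (-0.20) with the mean of all probes, and for Dcn with median scaling (0.0528) and normexp (0.0315). The causes were not tested. Median scaling moved the median of all genes against BMMNCs from 0.007 to -0.20 for the iPS lines and from 0.07 to -0.23 for ES cells, and no member changed direction there. Without Cdh11, also chosen after seeing the data, the common amounts were 0.15, 0.39 and 0.23.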
